A study of Mus musculus with 5 samples.

Results

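The antiviral interferon-stimulated genes described here are 37 genes, taken by symbol from a table of 24594 mouse genes, that interferon signalling is known to switch on, together with a few of its regulators. All 37 symbols were present in the table. Other than Mx1 and Mx2 the list holds no interferon-induced GTPase, and it holds no antigen presentation gene. RNA sequencing was done on GFP-positive cells sorted from mouse retinas that had received a plasmid by electroporation in the living animal on postnatal day 0 and were dissociated 4 days later. The group labelled Zfp292-OE had 3 libraries from retinas given CAG-Zfp292. The control group had 2 libraries from retinas given CAG-GFP. CAG is a strong promoter active in most cell types, so plasmid expression was not restricted to one cell type, and the labels used here give no strain, sex or number of animals for a library. Zfp292 encodes a large nuclear zinc finger protein.

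Interferons are secreted when a cell detects foreign or misplaced nucleic acid. They bind receptors that activate Janus kinases, which phosphorylate STAT proteins, and STAT complexes with interferon regulatory factors (IRFs) bind the promoters of many target genes. Type I interferon acts mainly through a complex that holds Stat2 and Irf9 and binds the interferon-stimulated response element, while type II interferon acts mainly on the gamma-activated site. The products of the target genes sense viral RNA, stop its translation, degrade it, hold virus particles at the membrane or recruit lymphocytes, and in the retina microglia, glia and neurons can all respond.

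The promoters of 7 of the genes are shown because they carry the letters of these elements, in genes whose levels differed widely between libraries (Ifit1, Ifit3, Oas1a, Rsad2 and Bst2), in Isg15, the ubiquitin-like modifier of the response, and in Irf1, which was higher in all 3 Zfp292-OE libraries. Each stretch is the 160 bases before the annotated start site, 5′ to 3′ along the gene, from RefSeq on GRCm38.p6. Capitals mark the core of the response element on either strand (GAAA, any 2 bases, GAAA) and the core of the gamma-activated site (TTCNNNGAA), which overlap each other in Bst2.
Irf1 (chr11:53769854-53770013, plus strand): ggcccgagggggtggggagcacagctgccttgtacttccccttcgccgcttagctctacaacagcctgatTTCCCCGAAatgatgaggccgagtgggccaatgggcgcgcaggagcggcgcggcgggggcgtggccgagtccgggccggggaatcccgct
Oas1a (chr5:120907526-120907685, minus strand): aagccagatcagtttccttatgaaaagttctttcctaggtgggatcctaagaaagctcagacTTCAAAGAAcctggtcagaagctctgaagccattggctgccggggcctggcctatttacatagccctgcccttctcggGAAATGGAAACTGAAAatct
Ifit1 (chr19:34640729-34640888, plus strand): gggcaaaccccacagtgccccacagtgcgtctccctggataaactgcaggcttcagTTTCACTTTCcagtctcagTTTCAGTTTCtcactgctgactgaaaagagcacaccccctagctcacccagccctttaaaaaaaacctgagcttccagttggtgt
Ifit3 (chr19:34583369-34583528, plus strand): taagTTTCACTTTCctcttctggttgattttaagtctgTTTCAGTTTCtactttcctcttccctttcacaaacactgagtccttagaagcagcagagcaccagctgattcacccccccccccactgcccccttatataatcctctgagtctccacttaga
Isg15 (chr4:156200819-156200978, minus strand): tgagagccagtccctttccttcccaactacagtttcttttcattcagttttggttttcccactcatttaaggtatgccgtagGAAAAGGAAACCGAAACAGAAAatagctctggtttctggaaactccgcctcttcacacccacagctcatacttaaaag
Rsad2 (chr12:26456453-26456612, minus strand): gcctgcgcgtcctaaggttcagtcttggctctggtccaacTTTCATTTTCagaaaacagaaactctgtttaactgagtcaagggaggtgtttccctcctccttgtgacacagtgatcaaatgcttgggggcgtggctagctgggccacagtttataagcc
Bst2 (chr8:71537473-71537632, minus strand): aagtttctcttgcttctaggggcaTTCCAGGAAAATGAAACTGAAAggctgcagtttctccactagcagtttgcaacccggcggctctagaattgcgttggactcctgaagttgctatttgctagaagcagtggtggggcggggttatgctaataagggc

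A promoter window of 300 bases, 250 before and 50 after the start site, was found for 27 of the 37 genes. The response element core stood on at least 1 strand in 12 of the 27 (44.4%), against 3.99% of 27025 genes with a window. The core of the gamma-activated site, TTCNNNGAA, stood in 6 of the 27 (22.2%), against 9.55% of all genes with a window. The genes were listed because interferon induces them, so these shares describe the list. In Ifit1 both copies lay between 104 and 76 bases before the start site, in Isg15 3 overlapping copies spanned 78 to 57 bases before it, and in Oas1a 2 overlapping copies lay within 20 bases of it. In Cxcl10 the core began 213 bases before the start site. A match describes the letters and does not show that a factor binds there.

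**Figure D1:**
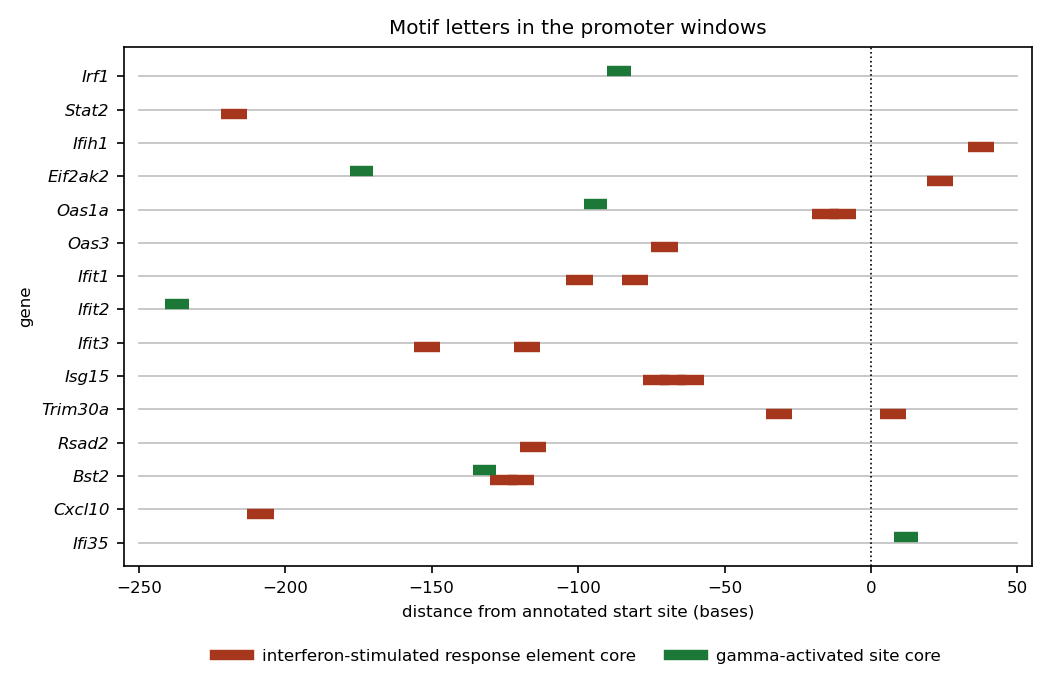
Positions of the response element core (red) and the gamma-activated site core (green) in the promoter windows of the 15 genes that held either, in bases from the annotated start site (x axis), 1 line per gene. The response element core clusters in the 160 bases before the start site in genes such as Ifit1, Ifit3, Isg15 and Rsad2, and begins 222 and 213 bases before it in Stat2 and Cxcl10.

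Reads assigned to genes numbered 114197740, 135442444 and 117441152 in Zfp292-OE libraries 1, 2 and 3 and 103096224 and 137683716 in Control libraries 1 and 2. Zfp292 itself had 14631, 13197 and 15534 normalised read counts in the Zfp292-OE libraries and 13288 and 14756 in the Control libraries. These ranges overlap, so the table does not show the overexpression that the labels give, and Zfp292-OE and Control below name libraries by their labels only. Whether reads from the plasmid would be counted under this gene is not stated. The sorted cells carry the label retinal progenitors. The 16 progenitor markers checked had reads in all 5 libraries, with summed values of 455720, 523968 and 417978 in Zfp292-OE and 272285 and 295212 in Control. The 14 rod markers did too, with sums of 297732, 292875 and 280065 in Zfp292-OE and 1001168 and 818933 in Control. The labels do not say whether libraries came from separate animals, so p-values measure the spread between these samples only.

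The interferon-stimulated genes were high in Zfp292-OE libraries 1 and 3, while in Zfp292-OE library 2 most of them stood near the Control libraries. Relative to the mean of the Control libraries on the log2(value + 1) scale, the median of the 36 tested genes was 1.36, 0.02 and 2.08 in Zfp292-OE libraries 1, 2 and 3, and −0.13 and 0.13 in Control libraries 1 and 2. The same median over all 16316 tested genes lay between −0.03 and 0 in every library. Of the 36, 17 stood at least 2-fold above the higher Control library in Zfp292-OE library 1, 4 in library 2 and 23 in library 3, where 6.72%, 6.71% and 5.50% of all tested genes did. Among the 3 Zfp292-OE libraries, library 3 held the highest value for 28 of the 37 genes and library 2 the lowest for 31. Over all tested genes, library 3 was highest for 33.2% and library 2 lowest for 32.5%. In this bulk material more cells with these transcripts and more transcript per cell cannot be told apart.

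**Figure D2:**
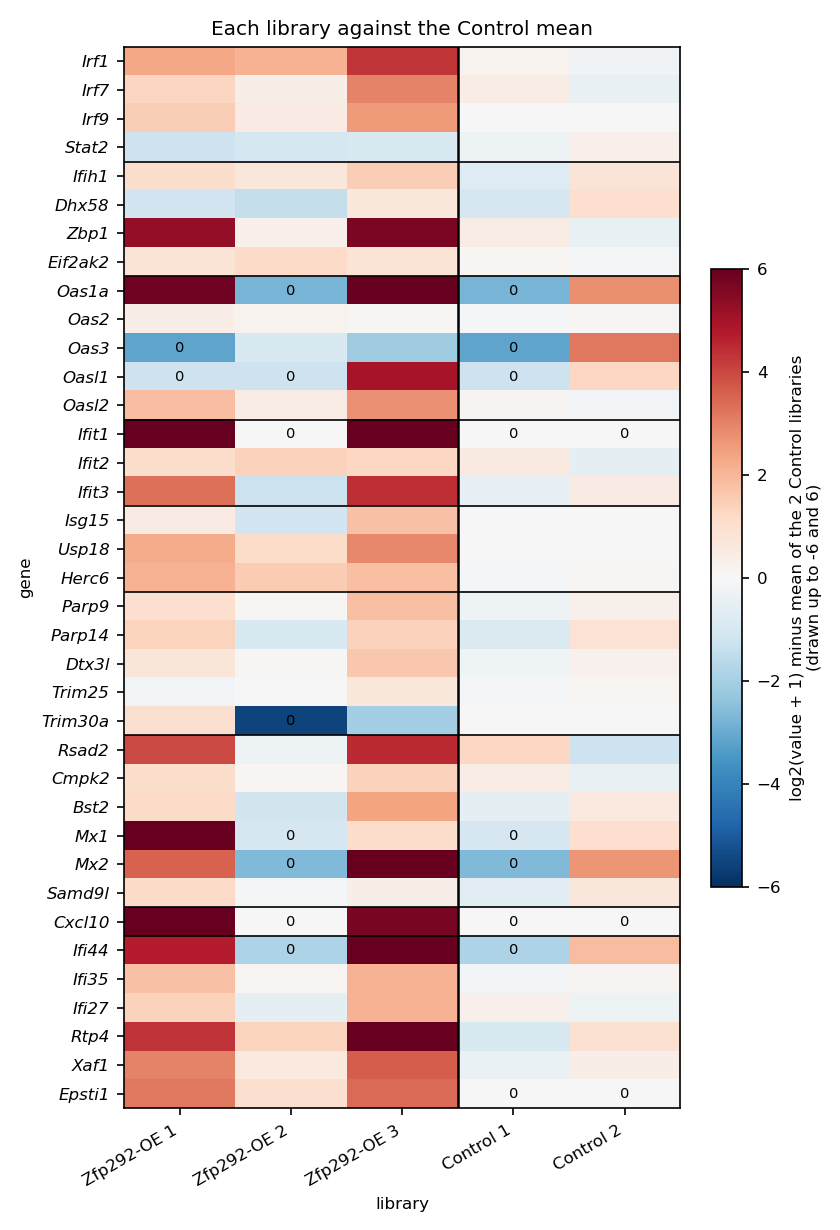
Log2(value + 1) of each of the 37 genes minus the mean of the 2 Control libraries, with the Zfp292-OE libraries at the left and the Control libraries at the right (colours end at −6 and 6, and 0 marks a library with no read). Zfp292-OE libraries 1 and 3 are red for most genes, with medians of 1.36 and 2.08, and in library 2, with a median of 0.02, Irf1, Usp18, Herc6, Ifit2, Eif2ak2 and Rtp4 are the genes above 1.

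Between the groups, 7 of the 37 genes rose and 1 fell in limma at an adjusted p below 0.05, 28 did not pass, and Epsti1 was too low to be tested. Over all tested genes 10% rose (1632) and 7.38% fell (1204), a split that turned to 913 higher and 1986 lower with libraries scaled to equal totals. The 8 calls were 22.2% of the 36, against 17.4% of all tested genes. At an unadjusted p below 0.05, 13 of the 36 (36.1%) were higher, against 17.3% of all tested genes. The genes that rose were Irf1, Usp18, Herc6, Oasl2, Ifit2, Rtp4 and Xaf1, and the one that fell was Stat2. For 9 of the 36 tested genes (25%) the 3 Zfp292-OE libraries all lay above both Control libraries, and 24.3% of all tested genes did so, so this share is near the background. Only Stat2 lay below both Control libraries in all 3 (2.78%, against 25.7% of all tested genes). The median log2 fold change of the 36 was 1.28, beside −0.06 over all tested genes. Genes near 0 in Control passed the filter on low values through the Zfp292-OE libraries, so these counts and medians describe the list and do not support a difference.

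The number of calls depended on single libraries. Without Zfp292-OE library 2, limma called 14 genes higher, where 4.08% of all tested genes were higher. They included Ifit1, Ifit3, Rsad2, Zbp1, Cxcl10, Ifi35 and Ifi27. Without library 1 limma called 2 (4.13% of all tested genes) and without library 3 it called 3 (7.51%). Irf1 and Herc6 were called in each of these fits. Library 2 was the lowest Zfp292-OE library for 31 of the 37 genes. Leaving it out therefore favours calls for them, and the 14 calls do not support a difference. Without Control library 1 or 2 limma called 0 of the genes and 0 of all genes, while 4 and 3 of the 36 were higher at an unadjusted p below 0.05. Over all tested genes 15.7% and 12.5% were, so these counts are not above the background. With all 5 libraries edgeR called 8 higher and 1 lower, beside 8.28% and 7.78% of all tested genes.

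**Figure D3:**
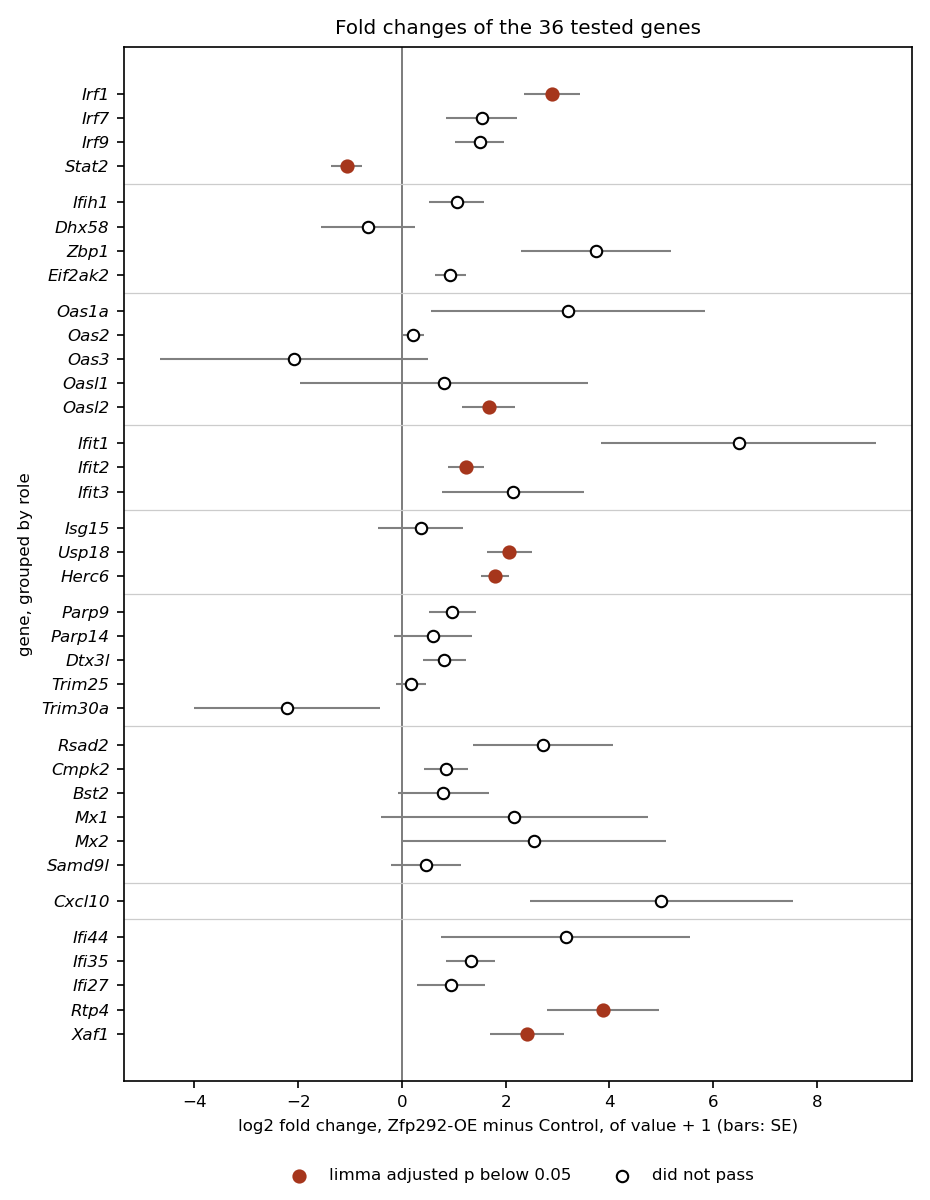
Log2 fold change of value + 1, Zfp292-OE minus Control, for the 36 tested genes (points) with the standard error from limma (bars), grouped by role. Filled points passed at an adjusted p below 0.05. Herc6 (1.80, SE 0.27) has a short bar, and Ifit1 (6.49, SE 2.65), absent from Zfp292-OE library 2, a long one.

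Among the factors that carry the signal, Irf1 rose, Stat2 fell, and Irf7 and Irf9 did not pass. Irf1, a transcription factor that type II interferon induces directly through a gamma-activated site (Entrez 16362, chromosome 11, 53770014 to 53778374), had 5468, 4701 and 21654 normalised read counts in the Zfp292-OE libraries and 1262 and 968 in the Control libraries. Every Zfp292-OE library stood well above both Control libraries, with library 3 highest. Irf1 averaged 10608 ± 9574 (SD, n = 3) in Zfp292-OE and 1115 ± 208 (SD, n = 2) in Control. The log2 fold change was 2.89 ± 0.53 (SE) at a limma adjusted p of 0.00636. Stat2, the subunit that brings transactivation to the type I complex (Entrez 20847, chromosome 10, 128270498 to 128292853), ran the other way, at 623, 698 and 768 in Zfp292-OE and 1174 and 1801 in Control. It averaged 696 ± 73 (SD, n = 3) in Zfp292-OE and 1488 ± 444 (SD, n = 2) in Control, and fell by 1.07 ± 0.30 (SE) on the log2 scale (limma adjusted p = 0.0380). The call for Stat2 was lost whichever library was left out, at limma adjusted p of 0.0611 to 0.258, and without the filter on low values, at 0.0522. Among the Zfp292-OE libraries all 4 factors were highest in library 3, by a small margin for Stat2.

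Irf9, the DNA-binding subunit of the same complex, had 3004, 1513 and 6398 in Zfp292-OE and 1070 and 1098 in Control. The groups did not overlap, but the log2 fold change of 1.5 (SE 0.47) missed the threshold in limma (adjusted p = 0.0545). Irf9 passed without Zfp292-OE library 2 (0.0236), with a pseudocount of 10 (0.0470), with a minimum mean of 50 (0.0417) and with a replicate block (0.0435), in a range over 14 alternatives of 0.0236 to 0.378. Irf7, which amplifies type I interferon production, had 501, 266 and 1648 in Zfp292-OE and 281 and 153 in Control, so that library 2 lay between the Control values (limma adjusted p = 0.152).

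None of the 4 sensors of nucleic acid passed in limma, and edgeR called 1, Zbp1. Zbp1, which binds Z-form nucleic acid and can trigger necroptosis (Entrez 58203, chromosome 2, 173206612 to 173218959), had 527, 16.0 and 695 in Zfp292-OE and 17.4 and 9.24 in Control. Library 2 lay within the Control range. The log2 fold change was 3.74 (SE 1.44), the adjusted p 0.103 in limma and 0.0447 in edgeR, and limma called it without library 2 (0.00960), in a range over 14 alternatives of 0.000122 to 0.489. Eif2ak2, the kinase PKR that halts translation on double-stranded RNA, had the smallest p of the sensors. It had 956, 1207 and 945 in Zfp292-OE and 584 and 499 in Control, with library 2 highest and no overlap (log2 fold change 0.93, SE 0.30, limma adjusted p = 0.0596). Eif2ak2 passed with a minimum mean of 50 (0.0433) and in DESeq2 (0.0129), in a range over 14 alternatives of 0.0129 to 0.240. Ifih1, the cytosolic RNA sensor MDA5, had 439, 339 and 586 in Zfp292-OE and 124 and 364 in Control (log2 fold change 1.06, SE 0.53). Dhx58, the related protein LGP2, had 49.1, 41.4 and 173 in Zfp292-OE and 55.6 and 223 in Control. Neither passed in limma (adjusted p = 0.201 and 0.657).

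Enzymes of the oligoadenylate synthetase family make the messenger that activates the nuclease RNase L, and the 5 members listed did not move as one. Oasl2, a family member with a ubiquitin-like tail (Entrez 23962, chromosome 5, 114896926 to 114912245), had 5537, 2024 and 9981 in Zfp292-OE and 1669 and 1365 in Control. The groups did not overlap, although library 2 was close to Control. Oasl2 averaged 5847 ± 3988 (SD, n = 3) in Zfp292-OE and 1517 ± 214 (SD, n = 2) in Control, and its log2 fold change of 1.67 (SE 0.51) lay just inside the limma threshold (adjusted p = 0.04998). That call held in edgeR (0.0451) and was lost in 8 of 14 alternatives, among them TMM scaling (0.0555) and the fits without Zfp292-OE library 1 (0.176), without library 3 (0.120) and without Control library 1 (0.302) or 2 (0.415). The range was 0.00956 to 0.415.

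Oas1a had 392, 0 and 672 in Zfp292-OE and 0 and 47.7 in Control, so libraries 1 and 3 were high and library 2 held no read. Oas2 was even, at 3019, 2601 and 2375 in Zfp292-OE and 2149 and 2407 in Control, and had the highest level per kilobase of exon of the family in Control. Oas3 was near 0 in 4 libraries and had reads mainly in Control library 2, with 0, 3.76 and 1.05 in Zfp292-OE and 0 and 80.1 in Control. Oasl1, which in mouse limits Irf7 translation, had reads mainly in Zfp292-OE library 3 (72.2), with 0 in libraries 1 and 2 and 0 and 4.62 in Control. These 4 genes did not pass in limma (adjusted p = 0.433 to 0.867). Oas1a has close copies, and one of them, Oas1g, had 334, 0 and 158 in Zfp292-OE and 0 and 29.3 in Control. How reads were divided between the copies is not given, so both are uncertain.

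The IFIT genes, whose proteins bind viral RNA that lacks host cap methylation, lie together on chromosome 19. Ifit1 (Entrez 15957, 34640889 to 34650009) had 730, 0 and 993 normalised read counts in Zfp292-OE and 0 in both Control libraries. Libraries 1 and 3 stood far above the other 3 libraries, none of which had a read. Against a floor of 3 reads over the Control group, the Zfp292-OE mean was at least 412-fold higher, a bound that covers counting error only and not the gap between libraries. The groups met at 0, and the adjusted p was 0.121 in limma and 0.0445 in edgeR (range over 14 alternatives 0.00658 to 0.470, 0.00658 without library 2). Ifit3 had 683, 27.3 and 1524 in Zfp292-OE and 49.0 and 96.3 in Control, with library 2 below both Control libraries. For Ifit3 the limma adjusted p was 0.306, and 0.587, 0.0166 and 0.661 without Zfp292-OE library 1, 2 and 3. Its close copy Ifit3b had 268, 3.76 and 623 in Zfp292-OE and 10.9 and 13.1 in Control, so the division of reads between these copies is uncertain too.

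Ifit2 (Entrez 15958, chromosome 19, 34550550 to 34576534) differed from its neighbours. It had 1311, 1640 and 1476 in Zfp292-OE and 910 and 431 in Control, and library 2, lowest for Ifit1 and Ifit3, was here the highest. It averaged 1476 ± 165 (SD, n = 3) in Zfp292-OE and 670 ± 339 (SD, n = 2) in Control (log2 fold change 1.23, SE 0.35, limma adjusted p = 0.0367). The call was lost whichever library was left out (0.0753 to 0.235), in edgeR (0.0579), with equal totals (0.0659) and without the filter (0.0532). The response element core stood in neither promoter window of Ifit2, while Ifit1 and Ifit3 each held 2 copies. Only the exact letters of the core in these windows were sought, so an element of other letters or place would be missed. A link between the core and the levels was not tested.

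Isg15 is a ubiquitin-like protein that is joined to other proteins during the response, and its partners Herc6 and Usp18 rose while Isg15 itself did not pass. Herc6, the main ligase for Isg15 in mouse (Entrez 67138, chromosome 6, 57580992 to 57665136), had 2470, 1689 and 2090 in Zfp292-OE and 563 and 618 in Control. All 3 Zfp292-OE libraries were more than 2-fold above both Control libraries and close to each other. Herc6 averaged 2083 ± 391 (SD, n = 3) in Zfp292-OE and 591 ± 38 (SD, n = 2) in Control. Its log2 fold change was 1.80 ± 0.27 (SE), and its limma adjusted p of 0.00227 was the smallest of the 36. Usp18, the protease that removes Isg15 and damps receptor signalling (Entrez 24110, chromosome 6, 121245906 to 121270917), had 3121, 1431 and 4987 in Zfp292-OE and 653 and 683 in Control. Usp18 averaged 3180 ± 1779 (SD, n = 3) in Zfp292-OE and 668 ± 21 (SD, n = 2) in Control (log2 fold change 2.07, SE 0.43, limma adjusted p = 0.0115). That call was lost without Zfp292-OE library 1 (0.0734) and without Control library 1 (0.190) or 2 (0.229). Isg15 had 165, 52.6 and 397 in Zfp292-OE and 119 and 116 in Control. Library 2 was the lowest of all 5, and Isg15 did not pass (log2 fold change 0.36, SE 0.82, limma adjusted p = 0.792).

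Of Irf1, Usp18 and Herc6 it held that each Zfp292-OE library was at least 2-fold above the higher Control library. How many of all tested genes did so in every library was not counted, so these 3 are not set against a background. Library 2 alone was at least 2-fold above for these 3 genes and Eif2ak2, and for no other of the 36 (11.1%, against 6.71% of all tested genes). Irf1 and Herc6 kept their calls in all fits but those that left out a Control library (adjusted p = 0.153 and 0.233 for Irf1, 0.0781 and 0.132 for Herc6, without Control library 1 and 2).

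**Figure D4:**
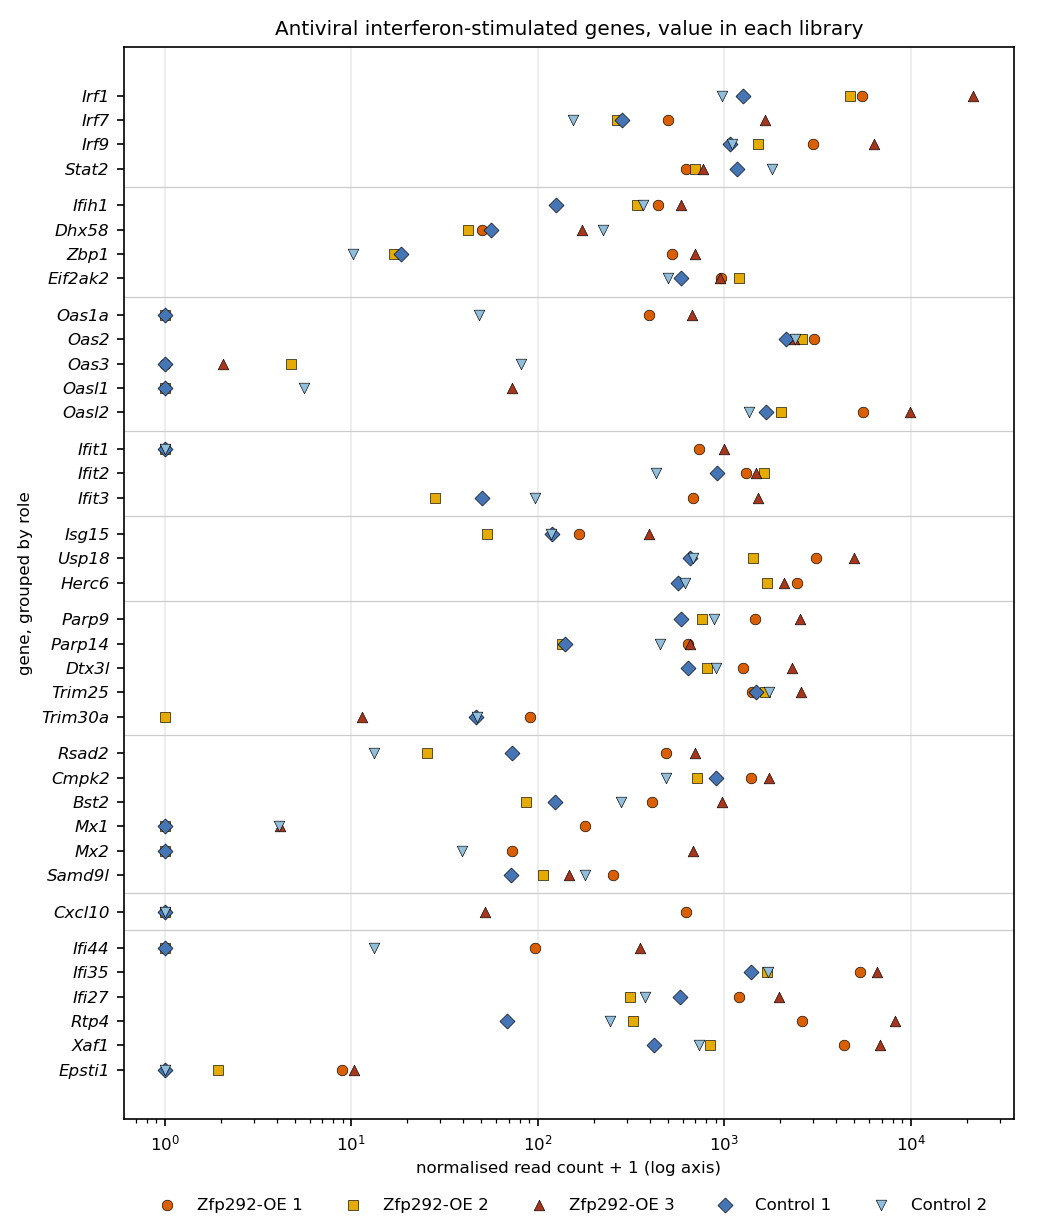
Normalised read count + 1 (log axis) of the 37 genes in each library, with a symbol for each library and genes grouped by role. For Ifit1, Cxcl10, Rsad2, Zbp1 and Rtp4 the symbols of Zfp292-OE libraries 1 and 3 lie to the right of the other 3, while for Herc6 and Ifit2 all 3 Zfp292-OE libraries lie to the right of both Control libraries.

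None of the enzymes that attach ubiquitin or ADP-ribose passed in limma at an adjusted p below 0.05, and edgeR called 0 of these 5 as well, with 0 at an unadjusted p below 0.05 in limma. Parp9, which forms a complex with the ubiquitin ligase Dtx3l, had the smallest p. It had 1461, 763 and 2539 in Zfp292-OE and 590 and 877 in Control (log2 fold change 0.98, SE 0.45, limma adjusted p = 0.166). Its partner Dtx3l followed the same order of libraries, at 1269, 808 and 2320 in Zfp292-OE and 641 and 900 in Control. Parp9 and Dtx3l share a bidirectional promoter region on chromosome 16 and overlap in their annotated spans, and whether counting used strand is not given. Parp14, which transfers single ADP-ribose units, had 640, 134 and 652 in Zfp292-OE and 140 and 453 in Control. Trim25, a ubiquitin ligase of the RIG-I pathway, had 1408, 1649 and 2580 in Zfp292-OE and 1477 and 1739 in Control. Trim30a was low, at 90.1, 0 and 10.5 in Zfp292-OE and 45.8 and 46.2 in Control.

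The restriction factors, which block steps of virus growth, included no gene that passed in limma or edgeR, and Rsad2, Bst2 and Mx2 were higher in Zfp292-OE libraries 1 and 3 than in the other 3 libraries. Rsad2, the enzyme viperin that makes a chain-terminating nucleotide (Entrez 58185, chromosome 12, 26442743 to 26456452), had 489, 24.4 and 695 in Zfp292-OE and 71.9 and 12.3 in Control. Library 2 lay within the Control range, and the log2 fold change of 2.72 (SE 1.35) did not pass in limma (adjusted p = 0.193, 0.0367 without library 2, range over 14 alternatives 0.0170 to 0.715). Its neighbour Cmpk2, a mitochondrial nucleotide kinase, had the smallest p of the restriction factors and a narrower spread, at 1393, 711 and 1735 in Zfp292-OE and 900 and 486 in Control (log2 fold change 0.86, SE 0.42, limma adjusted p = 0.193). Bst2, the membrane tether that holds budding virions, had 407, 85.5 and 968 in Zfp292-OE and 123 and 280 in Control.

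The dynamin-like GTPase Mx1, which is defective in many laboratory mouse strains, had 179, 0 and 3.14 in Zfp292-OE and 0 and 3.08 in Control. Mx2 had 71.9, 0 and 677 in Zfp292-OE and 0 and 38.5 in Control. Mx1 was thus high only in library 1 and Mx2 mainly in library 3. Samd9l, an antiviral inhibitor of translation, had 253, 105 and 145 in Zfp292-OE and 70.8 and 179 in Control. The adjusted p of Bst2, Mx1, Mx2 and Samd9l ran from 0.522 to 0.664 in limma.

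Cxcl10, the chemokine that attracts T cells through the receptor Cxcr3 (Entrez 15945, chromosome 5, 92346638 to 92348889), had 621, 0 and 51.3 in Zfp292-OE and 0 in both Control libraries. Unlike most of the genes it was highest in library 1. The Zfp292-OE mean was at least 161-fold above a floor of 3 reads over the Control group, with the same limits as for Ifit1. The log2 fold change was 5.0 (SE 2.53), and the limma adjusted p was 0.202, and 0.0389 without library 2 (range over 14 alternatives 0.0389 to 0.556).

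Of the other induced genes, Rtp4 and Xaf1 rose and 3 did not pass. Rtp4, a chaperone that helps receptors reach the cell surface (Entrez 67775, chromosome 16, 23520219 to 23614222), had 2606, 322 and 8212 in Zfp292-OE and 67.6 and 243 in Control. Library 2 was above both Control libraries but far below libraries 1 and 3. Rtp4 averaged 3713 ± 4060 (SD, n = 3) in Zfp292-OE and 155 ± 124 (SD, n = 2) in Control (log2 fold change 3.88, SE 1.09, limma adjusted p = 0.0362). Xaf1, a partner of the apoptosis inhibitor XIAP (Entrez 327959, chromosome 11, 72301461 to 72313733), had 4402, 837 and 6881 in Zfp292-OE and 417 and 733 in Control. Xaf1 averaged 4040 ± 3038 (SD, n = 3) in Zfp292-OE and 575 ± 223 (SD, n = 2) in Control (log2 fold change 2.41, SE 0.71, limma adjusted p = 0.0444). Without Zfp292-OE library 1 the adjusted p was 0.150 for Rtp4 and 0.177 for Xaf1, and without library 3 it was 0.101 and 0.131. Without Control library 1 it was 0.387 and 0.389, and without Control library 2 it was 0.259 and 0.305.

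Ifi35 had the highest level per kilobase of exon of the 37 genes in the Control group, at 904 normalised read counts per kilobase, and in the Zfp292-OE group its mean (2627) was close to that of Irf1 (2668). Per library, Ifi35 stood at 3085, 986 and 3811 per kilobase in Zfp292-OE and Irf1 at 1375, 1182 and 5446, so Ifi35 was above Irf1 in library 1 and below it in libraries 2 and 3. In normalised read counts Ifi35 had 5328, 1703 and 6581 in Zfp292-OE and 1399 and 1721 in Control, so library 2 fell between the Control values (limma adjusted p = 0.0804, 0.00746 without library 2, range over 14 alternatives 0.00746 to 0.435). Ifi27 had 1205, 310 and 1964 in Zfp292-OE and 578 and 375 in Control. Its limma adjusted p was 0.341, and 0.592, 0.0455 and 0.712 without Zfp292-OE library 1, 2 and 3. Ifi44 had 95.8, 0 and 355 in Zfp292-OE and 0 and 12.3 in Control (limma adjusted p = 0.392). Epsti1 had 7, 1 and 9 reads in the Zfp292-OE libraries and 0 in both Control libraries. It was below the filter and not tested.

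Of the 12 tested genes with the core in their window, 5, 1 and 7 were at least 2-fold above the higher Control library in Zfp292-OE libraries 1, 2 and 3. Of the 14 tested genes with a window but without it, 7, 2 and 10 were. The difference between these sets of genes was not tested.

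The rest of the pathway gave few calls, where 10% of all tested genes rose and 7.38% fell in limma. Of 21 interferon genes, 13 had no read in any library, Ifnb1 among them, and 1, Ifnz, was high enough to test. Ifnz had 25.1, 23.5 and 17.8 in Zfp292-OE and 4.36 and 3.85 in Control (limma adjusted p = 0.313). Ifng, the type II interferon, had 0 in the 3 Zfp292-OE libraries and 0 and 3.08 in Control. None of 5 tested receptor genes passed (limma and edgeR 0, with 1 at an unadjusted p below 0.05 in limma). Il10rb, a receptor chain used by interferon lambda, had 1079, 1767 and 641 in Zfp292-OE and 339 and 508 in Control (limma adjusted p = 0.0580, range over 14 alternatives 0.00548 to 0.356). Ifngr1, the ligand-binding chain for interferon gamma, had 10131, 7966 and 8712 in Zfp292-OE and 8594 and 7394 in Control (0.543).

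Of 8 genes that relay the signal, 1 fell and 7 did not pass, with a median log2 fold change of −0.37. Stat3, the main STAT of the interleukin-6 family, fell to 1449, 1216 and 2226 in Zfp292-OE, against 4014 and 4625 in Control, by 1.45 on the log2 scale (SE 0.27, limma adjusted p = 0.00675). Of 21 negative regulators 1 rose, 1 fell and 19 did not pass (median 0.16). Pias3, an inhibitor of Stat3, had 2548, 2286 and 2225 in Zfp292-OE and 5935 and 6776 in Control (log2 fold change −1.43, SE 0.18, limma adjusted p = 0.00108). The phosphatase Ptpn2, which dephosphorylates Janus kinases and STATs, had 27349, 23984 and 25366 in Zfp292-OE and 18205 and 15212 in Control (0.62, SE 0.14, adjusted p = 0.0183). Ptpn2 lost its call with equal totals (0.0645) and, of the 5 libraries, when any but Zfp292-OE library 3 was left out (0.0625 to 0.159).

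Of 26 tested genes of nucleic acid sensing, 5 rose, 0 fell and 21 did not pass (median 0.21, edgeR 4 higher). Over all tested genes 10% rose and 7.38% fell in limma, and 8.28% rose in edgeR. All 3 subunits of RNase H2, an enzyme that removes RNA from DNA, were among the 5, beside Samhd1 and Pnpt1. Rnaseh2b had 10949, 11162 and 7723 in Zfp292-OE and 3109 and 3499 in Control (log2 fold change 1.57, SE 0.20, limma adjusted p = 0.00102). Rnaseh2a rose by 0.89 and Rnaseh2c by 0.86, and Samhd1, which hydrolyses deoxynucleotides, rose by 0.79. Among the Zfp292-OE libraries these 4 genes were highest in library 2. Pnpt1, an exoribonuclease of mitochondria, had 8723, 6689 and 10357 in Zfp292-OE and 6086 and 4240 in Control and was lowest in library 2 (adjusted p = 0.0489 in limma and 0.0765 in edgeR). Rnaseh2a, Rnaseh2c and Samhd1 lost their calls without Zfp292-OE library 1 (limma adjusted p = 0.0524, 0.104 and 0.0849) and without library 2 (0.0512, 0.105 and 0.120). Samhd1 also lost it without library 3 (0.0556), and Rnaseh2c and Samhd1 with equal totals (0.0610 and 0.0912). Of the sensors themselves, Ddx58 (RIG-I) had 647, 241 and 893 in Zfp292-OE and 523 and 208 in Control, and Cgas had 219, 303 and 302 in Zfp292-OE and 99.2 and 240 in Control.

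A further list of 79 interferon-stimulated genes outside the 37 gave 7 higher, 2 lower and 56 that did not pass among 65 tested. Over all tested genes 10% rose and 7.38% fell, so the share of this list that rose was near the background. The list had a median log2 fold change of 0.62. Its median relative to the Control mean was 0.61, −0.07 and 1.06 in Zfp292-OE libraries 1, 2 and 3, the same order as for the 37 genes. Slfn9, of the schlafen family, had 4573, 4286 and 2030 in Zfp292-OE and 806 and 1071 in Control (log2 fold change 1.88, SE 0.35, limma adjusted p = 0.00644). Trim21, an antibody receptor and ubiquitin ligase of the cytosol, had 1206, 1112 and 2683 in Zfp292-OE and 357 and 353 in Control (2.11, SE 0.40, adjusted p = 0.00738). The scramblase Plscr1 rose by 1.11. Tdrd7, a tudor domain protein, fell to 963, 721 and 1662 in Zfp292-OE, against 3393 and 3841 in Control (−1.78, SE 0.33, adjusted p = 0.00674). Slfn9 lost its call without Zfp292-OE library 1 (0.0511).

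**Figure D5:**
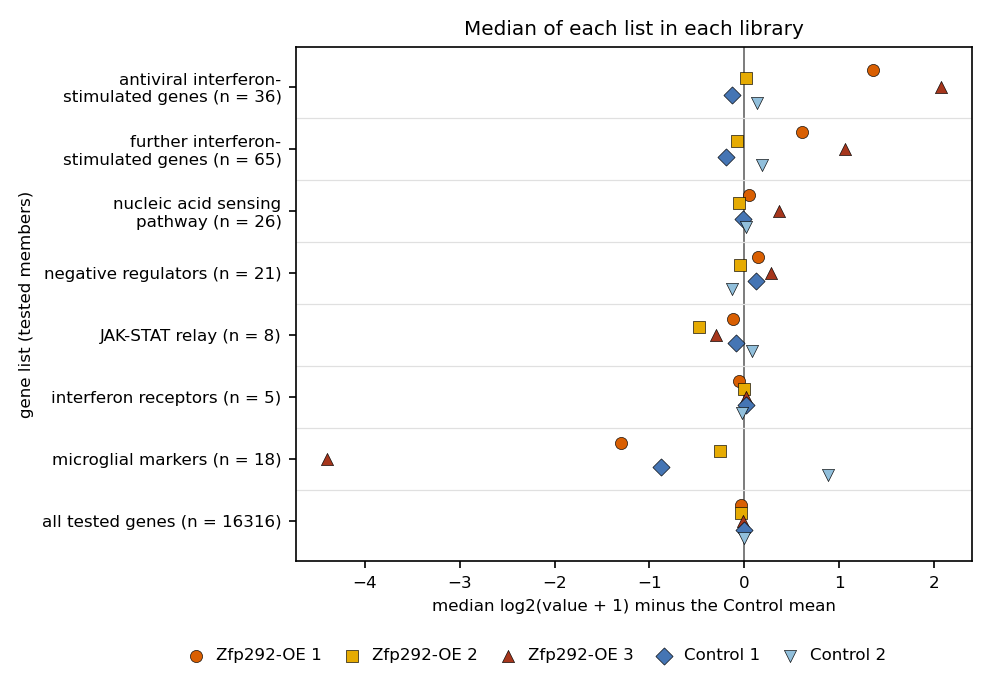
Median over the tested members of each list of log2(value + 1) minus the Control mean, for each library (x axis), with the number tested beside each list. For both lists of interferon-stimulated genes Zfp292-OE libraries 3 and 1 lie to the right (2.08 and 1.36, and 1.06 and 0.61). For microglial markers they lie to the left (−4.40 and −1.30), as does Control library 1 (−0.88).

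Microglia, the resident immune cells of the retina, express many of these genes. Of all tested genes 17.4% passed in limma. Of 18 microglial markers 0 passed in limma and edgeR called 0, with 2 at an unadjusted p below 0.05 in limma. Their summed value was 7190, 12382 and 3747 in Zfp292-OE libraries 1, 2 and 3 and 7825 and 23144 in Control libraries 1 and 2. In Zfp292-OE library 3, Csf1r, Ptprc, Ly86 and Tmem119 had no read. Csf1r had 92.4, 263 and 0 in Zfp292-OE and 363 and 1103 in Control, and Laptm5 had 61.6, 299 and 18.8 in Zfp292-OE and 308 and 542 in Control. The summed microglial value was lowest in Zfp292-OE library 3 (3747). It was close between Zfp292-OE library 1 (7190), high for the 37 genes, and Control library 1 (7825), low for them. The part of microglia in the values of the 37 genes was not tested. Of 16 genes of macrophages and lymphocytes, 6 could be tested and 0 passed in limma (edgeR 0, 1 at an unadjusted p below 0.05), and Cd3e and Cd163 had no read in any library. Lyve1 had 0 in all Zfp292-OE libraries and 46.9 and 21.6 in Control, and Cd4 had 183, 374 and 307 in Zfp292-OE and 194 and 101 in Control.

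Markers of other cells that the sort could hold also differed between the groups, where 10% of all tested genes rose and 7.38% fell in limma. Among tested markers, 2 of 10 endothelial genes rose (Cldn5 and Egfl7), 5 of 8 pericyte genes fell, 1 of 10 genes of fibroblasts and pigment epithelium fell (Col3a1), 4 of 6 astrocyte genes fell, and of 13 Müller glia genes 1 rose and 6 fell. The other 8 endothelial genes did not pass, and the median log2 fold change of the tested endothelial genes was −0.73, so Cldn5 and Egfl7 do not stand for that list. Of 16 progenitor genes 8 rose and 1 fell, and all 14 rod genes fell. The progenitor median relative to Control was alike in Zfp292-OE libraries 1, 2 and 3 (0.74, 0.77 and 0.71), as was the rod median (−1.92, −1.86 and −2.10). Medians of the other lists differed more between these libraries. Astrocyte genes (−1.47, −2.63 and −1.04) and Müller glia genes (−0.46, −0.94 and −0.61) were lowest in library 2, as the interferon-stimulated genes were. Library 3 was lowest for endothelial genes (−0.22, −0.995 and −1.04) and pericyte genes (−3.33, −3.59 and −4.84). It was also lowest for genes of fibroblasts and pigment epithelium (0.67, 0.95 and −0.47). The part of these markers in the values of the 37 genes was not tested.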

How the data were processed

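The deposited table holds a normalised signal per gene for 5 libraries: read counts scaled by the authors with a factor of its own for every library, since each value was a whole multiple of what 1 read is worth, within 1e-06 of a read, for 100% of genes (whole reads recovered). Per the labels' protocols, 1.3 µg of RNA went into each SMARTER library. Builds GRCm38 and mm10 are named per the submitters' processing notes. Which aligner, counter and scaling method were used is not given. Table columns of other samples numbered 0.

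Genes with a mean of at least 10 over the 5 libraries (16316 of 24594) entered limma with a trend (version 3.58.1 in R 4.3.3), fitted to log2(value + 1) as Zfp292-OE minus Control. P-values were adjusted by Benjamini-Hochberg over all of them, with a threshold of 0.05. Fold changes are on that scale, which understates the change of low genes. The reads were recovered for edgeR 4.0.16 (quasi-likelihood) and DESeq2 1.42.0 as alternatives. Others were TMM scaling, equal totals, pseudocounts of 0.5 and 10, no filter, a minimum mean of 50, a fit with the replicate number as a block, and fits that each left out 1 library (14 in all). Scripts were tested on simulated data. The genes and lists were chosen with earlier results of these data known, so no list was tested. Every member is reported, with full statistics for those past the threshold and for the smallest p in the other role groups. Of each other list the rule takes up to 4 genes past the threshold, or the 2 with the smallest p. Further genes named without full statistics were chosen after their values were seen. Some genes of these lists are not reported here. Cgas and Sting1 were matched from older symbols, and Pyhin1 and Mnda were not matched. Gene coordinates are from RefSeq on GRCm38.p6 and exon lengths from GENCODE M21. Floors of 3 reads take account of counting error only, because PCR copies were not told apart.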

Additional observations from a re-analysis of the deposited data

How the results depend on the processing

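The count of 7 genes higher moved little (6 to 9) under 6 of 9 alternatives that kept all libraries. It was 4 with equal totals, 3 without the filter on low values, where 20876 genes were tested, and 12 in DESeq2. The share of all tested genes called higher moved as well, to 5.6%, 6.50% and 14.2% under these settings. Leaving out 1 library each gave 0 to 14 higher, and 0 lower in all 5 such fits, against 1 in the fit on all libraries. Without the filter the count lower was 0 as well. The median log2 fold change of the members ranged from 0.91 to 1.64 over the alternatives with all libraries and from 0.91 to 1.89 when a library was left out. No member that was called, and no named gene of the other lists that was called, changed sign under the alternatives run. With equal totals the median over all tested genes was −0.27, against −0.06, so fold changes there read lower by that shift. Of the 37 genes it lost the calls of Oasl2, Ifit2 and Xaf1. Counts for other lists follow with the share of all tested genes called higher in brackets. For the further 79 genes the count higher was 7 (10%), against 15 in DESeq2 (14.2%). It was 12 without Zfp292-OE library 2 (4.08%), the lowest of the Zfp292-OE libraries for this list, and 2 without library 1 (4.13%). For nucleic acid sensing the count higher was 5 (10%), against 2 with equal totals (5.6%). It was 1 without Zfp292-OE library 1 (4.13%) or 2 (4.08%) and 3 without library 3 (7.51%). The cause was not tested. The replicate block (numbers 1 to 3 of the labels) called 8 genes higher and 1 lower. The numbers pair only 2 libraries of each group, whose deviations from their group means correlated at −0.04 and −0.03. With 2 Control libraries the deviations of one mirror those of the other. These values therefore cannot show whether libraries of the same number were prepared together, and the labels do not say. With 2 Control libraries, the fits without one of them assume that the lone library varies like the Zfp292-OE libraries. The floor was 3 reads over the Control group, so a gene at 0 is not shown to be absent.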

Other observations

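Some genes linked to type II interferon and antigen presentation, named after their values were seen, were also low in Zfp292-OE library 2 relative to libraries 1 or 3. Nlrc5, a transactivator of MHC class I genes, had 800, 54.5 and 1333 normalised read counts in Zfp292-OE libraries 1, 2 and 3 and 55.6 and 17.7 in Control libraries 1 and 2. It had adjusted p of 0.0659 in limma and 0.0425 in edgeR. Cd74, the invariant chain of MHC class II, had 616, 29.1 and 973 in Zfp292-OE and 167 and 12.3 in Control. Cd274, the checkpoint ligand PD-L1, had 282, 1.88 and 312 in Zfp292-OE and 75.2 and 139 in Control. Batf2, an interferon-induced transcription factor, had 7.99, 0 and 658 in Zfp292-OE and 0 and 2.31 in Control. Ifitm3, which blocks virus entry, had 2907, 261 and 5985 in Zfp292-OE and 889 and 1085 in Control, while its neighbour Ifitm2 was even among the Zfp292-OE libraries, at 11906, 11874 and 11542, against 6808 and 7976 in Control. Sting1, the adaptor of DNA sensing, had 63.9, 71.4 and 15.7 in Zfp292-OE and 241 and 220 in Control (limma adjusted p = 0.0711), so all 3 Zfp292-OE libraries lay below both Control libraries.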
